A study of Mus musculus with 14 samples.

Results

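Hearts of WT mice from the second cohort (group WT_B, 5 libraries, mice 4, 5, 7, 8 and 9) were set against hearts of WT mice from the pilot cohort (group WT_F, 5 libraries, mice 28 to 32). These are 10 of the 14 WT heart libraries analysed here, and they were taken by the group code in the sample labels. The libraries hold fragments of messenger RNA captured on poly-T beads, and expression is given as FPKM, a fragment count corrected for the length of the gene and for library depth. All 14 mice were C57BL6J mice of the WT genotype. They carry no short hairpin against frataxin, the mitochondrial protein lost in Friedreich ataxia, and their labels give no treatment with nicotinamide riboside or nicotinamide mononucleotide. Per the study's methods, WT controls also ate chow with doxycycline, the drug that switches on the hairpin in transgenic mice, from 12 to 16 weeks of age.

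WT_B mice were males studied after 16 weeks of doxycycline, and WT_F mice were females studied after 26 weeks. The labels themselves give only the group codes and a range of 16 to 20 weeks for every mouse, so sex, cohort and weeks come from the study's text. Cohort, sex, weeks of doxycycline and age at sampling therefore differ together between the groups and cannot be told apart in any result here. The remaining 4 libraries, group WT_A (mice 22, 23, 24 and 26), were pilot males after 20 weeks. Their values are given beside some results as a description, without a test, since they belong to the same cohort as WT_F and the same sex as WT_B. Each library was made from 1 to 2 mg of 1 heart, and the position of the piece is not given in the sources used here.

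The heart is made up mostly, by RNA, of cardiomyocytes, whose transcripts are dominated by sarcomere proteins and by the subunits of the respiratory chain. Fibroblasts, endothelial cells, smooth muscle cells and macrophages give the rest, including nearly all collagen, elastin and other matrix transcripts. Male and female rodent hearts are known to differ in size and in the expression of autosomal as well as sex-linked genes, and many heart transcripts follow the time of day through the circadian clock.

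The labels were checked first. Xist, which silences an X chromosome in females, lay at 0 to 0.0122 FPKM in WT_B and at 1.23 to 4.97 FPKM in WT_F. The Y-linked gene Ddx3y lay at 5.67 to 14.3 FPKM in WT_B and was listed at 0 in every WT_F library, as were Eif2s3y, Kdm5d and Uty. Genes on X and Y were then left out. All 10 pieces were rich in ventricle: Myl2, the ventricular myosin light chain, stood at 2230 to 2560 FPKM in WT_B and 2560 to 3850 FPKM in WT_F, while Myl7, its atrial counterpart, stood at 0.0742 to 1.41 FPKM in WT_B and 0 to 0.671 FPKM in WT_F. Depth was 16810000 to 23610000 fragments per library in WT_B and 21910000 to 27280000 in WT_F.

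The groups also differed in a property of the whole library, the share of summed FPKM that came from genes of the mitochondrial genome. The share was 48.9%, 49.5%, 45.2%, 52.0% and 33.8% in WT_B mice 4, 5, 7, 8 and 9, and 50.0%, 7.56%, 17.2%, 7.63% and 2.42% in WT_F mice 28 to 32. Mouse 28 therefore lay within the WT_B range, and the other 4 WT_F libraries all lay below it. The mean was 45.9% ± 7.17 in WT_B and 17.0% ± 19.2 in WT_F (SD, n = 5 each), a difference of 28.94 percentage points (exact two-sided permutation test, p = 0.0397, where the possible splits allow no less than 0.00794). Without mouse 28 the difference was 37.2 points (exact p = 0.00794). Leaving out mouse 29, 31 or 32 raised the exact p to 0.0714, with differences of 26.59, 26.61 and 25.3 points, and leaving out mouse 8 or 30 raised it to 0.0556.

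Mouse 28 resembled WT_B across nuclear genes as well. Over the 12243 autosomal genes tested, its log2 values correlated with those of WT_B libraries at r = 0.977 to 0.989 and with those of WT_F mice 29 to 32 at 0.952 to 0.977. These correlations run across genes, which are not independent replicates, and are given as a description. WT_B mouse 9, with the lowest mitochondrial share of its group, correlated with mice 29 to 32 at 0.965 to 0.983, against 0.949 to 0.974 for the other WT_B mice. Because mouse 28 stands apart from its group, counts are given below also without it. The changes of the main genes are given without mouse 28 and against it alone.

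**Figure D1:**
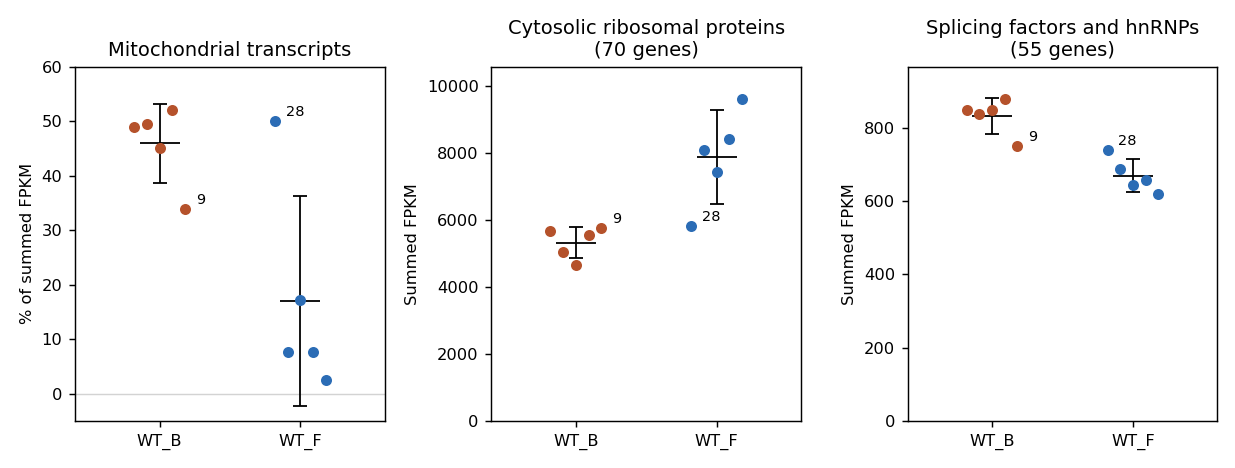
Each point is 1 library, with WT_B left of WT_F, and the bars give the mean and SD of 5 libraries. Left, the share of summed FPKM from mitochondrial genes in percent; middle, the summed FPKM of 70 cytosolic ribosomal protein genes; right, the summed FPKM of 55 genes for splicing factors and hnRNPs. WT_F mouse 28 lies within the WT_B range on the left and just outside it in the other panels, and WT_B mouse 9 lies on the WT_F side of its group on the left and right.

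Between WT_B and WT_F, 243 of 12243 autosomal genes (1.98%) passed an adjusted p of 0.05 in limma's moderated test on log2(FPKM + 1), 94 higher in WT_B (0.768%) and 149 lower (1.22%). The balance of directions depended on the scaling: with FPKM rescaled to equal nuclear sums, 125 genes were called higher and 63 lower. At an unadjusted p under 0.05 there were 3147 genes. On this scale a fold change understates the change of genes near or below 1 FPKM. Of the called genes, 201 showed no overlap between the groups, against 639 of all genes tested (5.22%). Genes called higher were mostly of low level, with a median of 0.969 FPKM in WT_F, and had a median exon length of 4553 nt. Genes called lower were abundant and short, with a median of 21.9 FPKM in WT_F and a length of 1726 nt. Over all tested genes the medians were 3.6 FPKM and 4033 nt.

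The count changed with nearly every library left out. Without mouse 28, 2482 of 12132 genes were called (20.5%), 1323 higher (10.9%) and 1159 lower (9.55%), and all 243 genes of the full comparison were among them. Without WT_B mice 4, 5, 7, 8 and 9 in turn, 15, 11, 43, 95 and 293 genes were called, and without WT_F mice 29, 30, 31 and 32, 9, 16, 11 and 11. Mouse 28 alone has no spread of its own, so calls against it are not given. Against it, the genes called higher had a median log2 fold change of 0.32 and those called lower -0.29. With all 10 libraries these medians were 0.56 and -0.53. With the log2 mitochondrial share as a covariate 1 gene was called, and 1042 had an unadjusted p under 0.05. The part of the mitochondrial share in the calls cannot be told apart from that of cohort, sex and weeks, since all of them go with the groups.

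**Figure D2:**
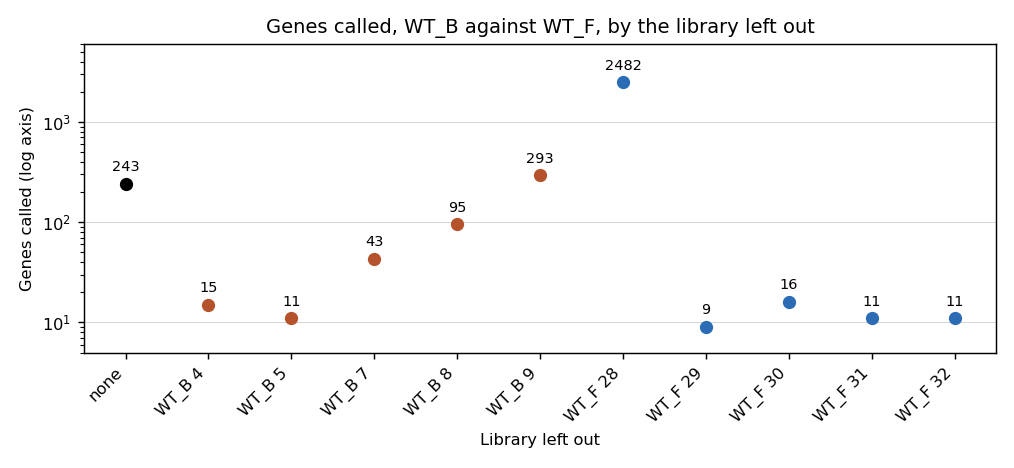
Number of autosomal genes called between WT_B and WT_F at an adjusted p of 0.05 (log axis), for all 10 libraries and with each library left out in turn. The count is 243 with all libraries, 2482 without WT_F mouse 28, and 9 to 16 without any of the other 4 WT_F mice.

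A small set of genes did not rest on any single library. 9 genes were called whichever library was left out, and all 9 were higher in WT_B: C7, Hsd11b1, Efemp1, Lvrn, Ccn5, Srp54b and 3 noncoding or predicted models, Gm25135, Gm11816 and Gm12940. Lvrn, Ccn5, Srp54b and the 3 models were named after their values were seen, as were Spon2, Ace, Serpine2, Ednrb, Smoc2, Atp6v0e2, Vgll2, Igf1, Hey2, Cds1, Dnajc27, the model 6030408B16Rik, the list members given by name alone, and the sequences shown. The other called genes named here kept their calls in 1 to 5 of the 10 comparisons that left out a library, except Atp6v0e2, which kept it in 8. The promoters of 3 of the 9, C7, Efemp1 and Hsd11b1, are shown as examples of genes called whichever library was left out. Each line gives the 150 bases before the annotated start in build GRCm38.p6, written 5′ to 3′ on the strand of the gene, with matches to the 4 motifs searched in capitals.
C7, chr15:5063774-5063923, minus strand: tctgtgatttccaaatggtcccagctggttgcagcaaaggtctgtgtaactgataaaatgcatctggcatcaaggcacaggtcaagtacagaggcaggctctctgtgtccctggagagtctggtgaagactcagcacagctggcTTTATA
Efemp1, chr11:28853055-28853204, plus strand: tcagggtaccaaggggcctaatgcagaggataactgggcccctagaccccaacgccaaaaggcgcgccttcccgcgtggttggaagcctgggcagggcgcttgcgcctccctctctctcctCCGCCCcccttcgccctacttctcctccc
Hsd11b1, chr1:193242361-193242510, minus strand: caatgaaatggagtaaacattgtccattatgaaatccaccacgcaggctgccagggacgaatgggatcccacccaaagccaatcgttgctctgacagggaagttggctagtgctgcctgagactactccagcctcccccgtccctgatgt

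The motifs were TATAAA (the TATA box), TGANTCA (bound by AP-1 factors), TGTTCT (bound, within a longer site, by steroid hormone receptors) and GGGCGG (the GC box), searched on either strand. The letters TATAAA were matched in C7, on the opposite strand and directly before the annotated start. GGGCGG was matched in Efemp1, also on the opposite strand, and Hsd11b1 held none of the 4. Over all 32851 listed promoters, windows of the same length held TATAAA in 7.57%, TGANTCA in 4.24%, TGTTCT in 9.62% and GGGCGG in 28.6%. The 3 windows thus shared no match. Windows of Col3a1, Ace and Serpine2, which are not shown, were searched as well. TATAAA was matched in Col3a1 and at listed start 1 of Ace, and GGGCGG at that start of Ace and in Serpine2. A match to letters is not a bound site, and its absence here says nothing of the factor.

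C7 codes for a late component of the complement pathway that takes part in forming the membrane attack pore. It stood at 4.14, 6.69, 4.07, 5.68 and 6.86 FPKM in WT_B mice 4, 5, 7, 8 and 9, and at 0.836, 1.74, 0.887, 1.19 and 0.671 FPKM in WT_F mice 28 to 32. Every WT_B heart lay above every WT_F heart, with mouse 28 among the other WT_F mice. The log2 fold change was 1.65 (SE 0.16, adjusted p = 0.00193), 1.61 without mouse 28 and 1.80 against mouse 28 alone. In pilot males the values were 7.78, 4.09, 12.1 and 3.09 FPKM, all above the WT_F range. In pieces of whole tissue, fewer cells of a type and less RNA per cell cannot be told apart.

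Efemp1 codes for a secreted glycoprotein of the fibulin family in the extracellular matrix. Its values were 5.18, 5.75, 5.13, 6.15 and 5.08 FPKM in WT_B and 1.66, 3.46, 2.12, 2.49 and 2.21 FPKM in WT_F, with mouse 28 the lowest of its group. The groups did not overlap, and the log2 fold change was 0.95 (SE 0.12, adjusted p = 0.00757), 0.87 without mouse 28 and 1.28 against mouse 28 alone. Pilot males had 3.81 to 7.29 FPKM.

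Hsd11b1, the enzyme that regenerates active glucocorticoid inside cells, lay within narrow ranges in both groups. It stood at 2.60, 2.69, 2.54, 2.59 and 2.95 FPKM in WT_B and at 1.35, 1.06, 1.49, 1.25 and 1.22 FPKM in WT_F. The log2 fold change was 0.69 (SE 0.07, adjusted p = 0.00193), 0.71 without mouse 28 and 0.64 against it alone. Pilot males lay at 2.44 to 3.46 FPKM, beside WT_B. Of 13 tested genes on the list of glucocorticoid response genes, Hsd11b1 was the only 1 called, where 0.768% of all genes were called higher. The median log2 fold change of that list was 0.13, against -0.03 over all genes tested, and it was -0.02 against mouse 28 alone.

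Ccn5, a matricellular protein made by smooth muscle cells and fibroblasts, had 2.73, 2.16, 2.15, 2.03 and 3.30 FPKM in WT_B and 0.973, 0.441, 0.535, 0.879 and 0.534 FPKM in WT_F (log2 fold change 1.05, SE 0.12, adjusted p = 0.0031). Pilot males again stood high, at 2.01 to 6.94 FPKM. Lvrn, a membrane-bound aminopeptidase, had 1.15, 1.29, 1.06, 0.955 and 1.19 FPKM in WT_B and 0.190, 0.217, 0.158, 0.122 and 0.202 FPKM in WT_F. Its log2 fold change was 0.85 (SE 0.07, adjusted p = 0.000368). Every WT_F value of Lvrn lay below the filter of 0.5 FPKM, so it entered the test only through WT_B, where it is high. Srp54b, Spon2, Igf1 and Npas2 also needed WT_B libraries to pass that filter, and Vgll2 needed WT_F libraries. For Lvrn the pilot males lay between the groups, at 0.379 to 0.634 FPKM. Without mouse 28 the log2 fold changes of Ccn5 and Lvrn were 1.12 and 0.86, and against it alone they were 0.80 and 0.84. Srp54b, a subunit of the signal recognition particle, had 2.32 to 5.24 FPKM in WT_B and 0.367 to 0.821 FPKM in WT_F, but it has near-identical copies that can share fragments and its value is uncertain.

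**Figure D3:**
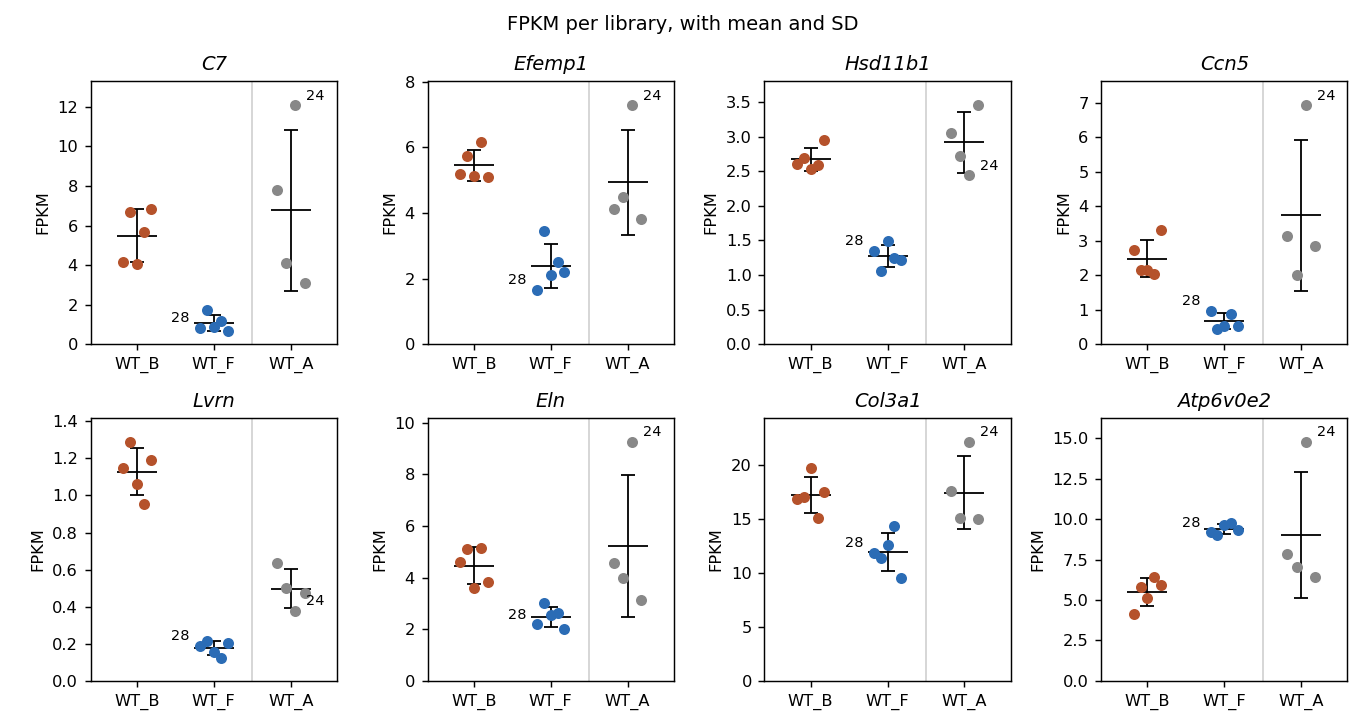
FPKM of 8 genes in each library, with WT_B left of WT_F and the pilot males WT_A to the right of the grey line; bars give the mean and SD. In every panel mouse 28 lies with the other WT_F mice. For C7, Efemp1, Hsd11b1, Ccn5, Eln and Col3a1 the pilot males lie above all WT_F hearts, and for Lvrn they lie between the groups. For Atp6v0e2, pilot males 22, 23 and 26 lie at 6.4 to 7.84 FPKM, below all WT_F hearts. Mouse 24 lies above all WT_F hearts for that gene, at 14.8 FPKM. Mouse 24 is the pilot male with atrial transcripts.

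Eln, Col3a1 and Spon2 also rose. Eln, which codes for elastin, had 4.62, 5.09, 3.59, 5.14 and 3.82 FPKM in WT_B and 2.20, 3.0, 2.57, 2.64 and 2.0 FPKM in WT_F (log2 fold change 0.64, SE 0.11, adjusted p = 0.0245). Col3a1, a fibrillar collagen, had 15.1 to 19.8 FPKM in WT_B and 9.51 to 14.4 FPKM in WT_F (log2 fold change 0.50, SE 0.11, adjusted p = 0.0396). Eln kept its call in 4 of the 10 comparisons that left out a library and Col3a1 in 1. Spon2, a secreted matrix protein, had 1.11 to 2.08 FPKM in WT_B and 0.423 to 1.02 FPKM in WT_F (log2 fold change 0.72, adjusted p = 0.0268). Without mouse 28 the changes of Eln, Col3a1 and Spon2 were 0.62, 0.50 and 0.68, and against it alone 0.76, 0.49 and 0.87.

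Of 17 collagen genes tested, Col3a1 rose and Col14a1, a collagen that decorates fibrils, fell, with 0.779 to 1.47 FPKM in WT_B and 1.84 to 2.65 FPKM in WT_F (log2 fold change -0.55, adjusted p = 0.0341), a call lost under nuclear rescaling. Over all genes 0.768% were called higher and 1.22% lower. The collagen list had a median log2 fold change of 0.17, with 16 of 17 members above 0, against the median of -0.03 over all genes. Against mouse 28 alone the median was 0.38. Of 33 genes for matrix remodelling and matricellular proteins, Eln was the only 1 called, against 0.768% of all genes called higher. The median of that list was 0.07. Smoc2, a secreted calcium-binding matrix protein outside these lists, fell, with 6.86 to 10.2 FPKM in WT_B and 12.5 to 17.2 FPKM in WT_F (log2 fold change -0.73, adjusted p = 0.0245). Without mouse 28 the changes of Col14a1 and Smoc2 were -0.60 and -0.78, and against it alone -0.39 and -0.52. The summed level of 8 fibroblast markers overlapped between the groups, at 431 to 560 FPKM in WT_B and 400 to 587 FPKM in WT_F (median log2 fold change 0.11, 0 of 8 called by limma or voom, 3 at an unadjusted p under 0.05).

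Ace, Serpine2 and Ednrb, 3 genes picked for their calls, rose. Ace, the angiotensin-converting enzyme, had 11.6 to 15.7 FPKM in WT_B and 9.26 to 11.3 FPKM in WT_F (log2 fold change 0.45, SE 0.10, adjusted p = 0.0416). Serpine2, an inhibitor of serine proteases, had 2.76 to 3.84 FPKM in WT_B and 1.70 to 2.56 FPKM in WT_F (log2 fold change 0.41, adjusted p = 0.0496). Ednrb, an endothelin receptor, had 2.85 to 5.30 FPKM in WT_B and 2.19 to 2.81 FPKM in WT_F (log2 fold change 0.55, adjusted p = 0.0495). For all 3, mouse 28 lay at or beyond the mean of the other WT_F mice on the side away from WT_B. Their calls held in 2, 1 and 2 of the 10 comparisons that left out a library, and those of Serpine2 and Ednrb were lost under quantile normalization. Summed markers of endothelial cells lay at 315 to 442 FPKM in WT_B and 305 to 480 FPKM in WT_F, and those of smooth muscle and pericytes at 200 to 370 FPKM in WT_B and 163 to 235 FPKM in WT_F. Limma called 0 of the 10 and 0 of the 8 tested markers, with 2 and 1 at an unadjusted p under 0.05, and voom called 0 and 1.

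The pilot males separated the called genes into patterns, given here as counts with no test. In 11 of the 94 genes called higher, all 9 male libraries of both cohorts lay above all 5 WT_F libraries: C7, Efemp1, Hsd11b1, Ccn5, Lvrn, Eln, Col3a1, Ace, Serpine2, Cds1 and the model 6030408B16Rik. Over all 12243 genes 15 did so (0.123%). In 6 of the 149 genes called lower, among them Smoc2 and Dnajc27, all 9 male libraries lay below WT_F, against 16 of all genes (0.131%). WT_B instead lay apart from all 9 pilot libraries, male and female, in 34 of the genes called higher and 65 of those called lower, against 82 (0.670%) and 159 (1.30%) of all genes. The calls were made on WT_B and WT_F, so these counts share their libraries with the calls. Mouse 24 holds atrial transcripts, with Myl7 at 4240 FPKM. Without it the counts of called genes were 12 and 9 for males against WT_F, and 38 and 93 for WT_B against the pilot libraries.

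Most of the listed genes that fell were cytosolic ribosomal proteins, the protein part of the machinery that translates nuclear messages. Of 70 tested, 28 fell and 0 rose by limma (61 had an unadjusted p under 0.05, and voom called 45, all lower), against 1.22% of all genes called lower, 25.7% with such a p and 2.20% called lower by voom. The median log2 fold change was -0.55, with 69 of 70 below 0, against -0.03 over all genes. Their summed level was 5662, 5034, 4646, 5537 and 5747 FPKM in WT_B and 5817, 8099, 7431, 8411 and 9616 FPKM in WT_F. Mouse 28 was therefore the lowest WT_F heart, only just above WT_B, and the other 4 lay well above. Without mouse 28, 62 fell, against 9.55% of all genes, and the median was -0.63, and against mouse 28 alone the median was -0.18. The list stayed below 0 when FPKM were rescaled to equal nuclear sums (18 called, median -0.44), by median of ratios (27 called, -0.51) and by quantiles (15 called, -0.42).

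Messages of this family share a run of C and T letters at their 5′ end, the start of the tract through which their translation is controlled. The starts of 4 members named here are shown to let the reader see the runs of C and T around the annotated start. Each line holds the 15 bases before and the 15 from the annotated start in GRCm38.p6, with the longest uninterrupted run of C and T in capitals.
Rpl34, chr3:130730323-130730352, minus strand: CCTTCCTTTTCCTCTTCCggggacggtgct
Rps24, chr14:24490663-24490692, plus strand: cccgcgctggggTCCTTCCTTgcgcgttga
Rps3, chr7:99483695-99483724, minus strand: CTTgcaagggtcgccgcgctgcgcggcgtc
Rpl35, chr2:39005117-39005146, minus strand: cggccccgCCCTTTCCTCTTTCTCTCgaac
The run was 18 letters in Rpl34 and Rpl35, 9 in Rps24 and 3 in Rps3, at the listed start with the longest run. A run of 8 or more was found in 24 of the 50 tested ribosomal protein genes with an entry (48.0%) and in 10 of the 22 that were called (45.5%), against 1326 of 8808 tested genes with an entry (15.1%). Annotated starts can miss the true one by some bases, so a short run does not show that the message lacks the tract. Runs were counted anywhere in the window, also before the annotated start, as for most of the run in Rpl34. A long run therefore does not show that the message holds the tract.

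Rpl34, of the large subunit, had 20.0, 19.6, 17.4, 26.2 and 25.8 FPKM in WT_B and 31.5, 39.8, 41.2, 41.0 and 45.8 FPKM in WT_F (log2 fold change -0.85, SE 0.13, adjusted p = 0.0245). Rps24, of the small subunit, had 24.7 to 31.2 FPKM in WT_B and 35.6 to 43.7 FPKM in WT_F (log2 fold change -0.51, adjusted p = 0.0245). Rps3 had 36.5 to 49.9 FPKM in WT_B and 56.7 to 86.2 FPKM in WT_F (log2 fold change -0.69, adjusted p = 0.0245). Rps27 had 13.3 to 51.9 FPKM in WT_B and 63.2 to 129 FPKM in WT_F (log2 fold change -1.60, SE 0.34, adjusted p = 0.0398), a call lost under nuclear rescaling and quantile normalization. Without mouse 28 the changes of Rpl34, Rps24, Rps3 and Rps27 were -0.93, -0.56, -0.76 and -1.71, and against it alone -0.53, -0.34, -0.41 and -1.14. Rpl37a, Rpl32, Rps12 and Rpl35 fell by 0.89, 0.82, 0.81 and 0.76 on the log2 scale. In each of these 8 genes mouse 28 lay between the mean of WT_B and that of the other WT_F mice. Ribosomal protein genes have many processed pseudogenes in the mouse, and the sources used here do not say how fragments shared with them were counted.

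Subunits of the respiratory chain encoded in the nucleus fell in smaller number. Of 41 subunits of complexes II to V, 6 fell, where 1.22% of all genes did: Uqcrq, Uqcrh and Uqcr10 of complex III, Cox7a2 and Cox8b of complex IV, and Atp5e of ATP synthase. The median of the 41 was -0.26, with 38 below 0 and 3 above. The largest change on the list was a rise of 3.36 on the log2 scale, which limma did not call. Voom called 9 of the list lower and 1 higher. Atp5e had 124, 122, 121, 162 and 108 FPKM in WT_B and 180.0, 301, 239, 293 and 341 FPKM in WT_F (log2 fold change -1.06, SE 0.16, adjusted p = 0.0245). Uqcr10 had 295 to 376 FPKM in WT_B and 408 to 678 FPKM in WT_F (log2 fold change -0.77), and Cox7a2 had 174 to 221 FPKM in WT_B and 223 to 364 FPKM in WT_F (log2 fold change -0.65). The changes of Atp5e, Uqcr10 and Cox7a2 were -1.20, -0.88 and -0.76 without mouse 28, and against it alone -0.51, -0.29 and -0.23. Mouse 28 was the lowest WT_F heart for all 3.

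Of 35 subunits of complex I, Ndufa7 fell, with 47.6 to 68.5 FPKM in WT_B and 60.5 to 127 FPKM in WT_F, where mouse 28 at 60.5 FPKM overlapped WT_B (log2 fold change -0.88, adjusted p = 0.0386). The median of the 35 was -0.27. Of 75 mitochondrial ribosomal proteins Mrpl16 and Mrps28 fell, and the median was -0.22, while 44 had an unadjusted p under 0.05 and voom called 7, all lower. By limma's adjusted p the 1 of 35 and 2 of 75 lie near the 1.22% of all genes called lower. The other counts lie above their background. Of the 35 complex I subunits, 20 had an unadjusted p under 0.05 and voom called 4, all lower. Over all genes, 25.7% had such a p and voom called 2.20% lower. Mrps28 stood at 39.5 to 41.9 FPKM in WT_B and 46.2 to 68.4 FPKM in WT_F (log2 fold change -0.48, adjusted p = 0.0373), and Mrpl16 at 15.5 to 17.6 FPKM in WT_B and 18.1 to 23 FPKM in WT_F (log2 fold change -0.34, adjusted p = 0.0496). Without mouse 28, when 9.55% of all genes were called lower, 24 of complexes II to V, 17 of complex I and 38 mitochondrial ribosomal proteins were. Against mouse 28 alone the medians were -0.07, -0.04 and -0.06. Leaving out mouse 28 also gave 2 of complexes II to V and 3 mitochondrial ribosomal proteins called higher, against 10.9% of all genes. Under nuclear rescaling, 4 of complexes II to V, 1 of complex I and 0 mitochondrial ribosomal proteins were called lower by limma, with medians of -0.15, -0.16 and -0.11, and quantile normalization called 3, 1 and 0. With the mitochondrial share as a covariate the median of the cytosolic ribosomal proteins was -0.24, and the part of the share cannot be told apart from that of the groups.

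Genes of splicing moved the other way. Of 55 splicing factors and hnRNPs, 7 rose and 0 fell by limma: Hnrnph1, Ddx5, Pnisr, Srsf11, Srrm1, Rbm25 and Luc7l3 (37 had an unadjusted p under 0.05, and voom called 21, all higher), against 0.768% of all genes called higher and 2.77% by voom. The median was 0.32, with 48 of 55 above 0. The summed level of the list was 847.6, 838.9, 849.6, 879.4 and 750.7 FPKM in WT_B and 739.1, 688.0, 643.1, 658.0 and 620.0 FPKM in WT_F. Mouse 28 was the highest WT_F heart and mouse 9 the lowest WT_B heart, and the groups did not overlap. Without mouse 28, 33 members rose, against 10.9% of all genes, and against it alone the median was 0.14. The direction held under the 3 other scalings, with 7 to 11 members called and medians of 0.36 to 0.41.

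Ddx5, an RNA helicase, had 83.3, 84.3, 86.8, 91.4 and 71.5 FPKM in WT_B and 65.0, 51.8, 43.4, 50.4 and 41.7 FPKM in WT_F (log2 fold change 0.73, SE 0.12, adjusted p = 0.0245). Hnrnph1, an hnRNP protein that binds runs of G, had 15.6 to 20.4 FPKM in WT_B and 8.35 to 14.5 FPKM in WT_F (log2 fold change 0.75, adjusted p = 0.0245). Ddx5 and Hnrnph1 had changes of 0.82 and 0.86 without mouse 28, and against it alone 0.35 and 0.34. Pnisr had 4.18 to 5.85 FPKM in WT_B and 2.29 to 3.72 FPKM in WT_F (log2 fold change 0.63), Srsf11 rose by 0.52 and the splicing kinase gene Prpf4b by 0.50. Snrpg, a protein of the core of spliceosomal particles that is not on the list, fell, with 2.77 to 4.43 FPKM in WT_B and 4.65 to 7.85 FPKM in WT_F (log2 fold change -0.77, adjusted p = 0.0276).

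Transcripts known to be held in the nucleus with introns retained, among them those of the CLK kinases that phosphorylate SR proteins, rose in 3 of 11 members, against 0.768% of all genes. Clk1 had 7.48, 7.54, 8.21, 9.33 and 5.11 FPKM in WT_B and 5.46, 2.90, 2.86, 3.10 and 1.99 FPKM in WT_F, so that mouse 28 lay above mouse 9 (log2 fold change 1.03, SE 0.19, adjusted p = 0.0276). Clk4 had 4.96 to 5.87 FPKM in WT_B and 2.52 to 4.21 FPKM in WT_F (log2 fold change 0.60), and the cyclin gene Ccnl1 had 2.63 to 3.90 FPKM in WT_B and 1.37 to 2.49 FPKM in WT_F (log2 fold change 0.74). Leaving out mouse 28 gave changes of 1.19, 0.67 and 0.84 for Clk1, Clk4 and Ccnl1, and comparing with it alone gave 0.38, 0.31 and 0.32. The median of the list was 0.38. Pilot male 22, whose mitochondrial share was 51.0%, had 4.28 FPKM of Clk1, against 0.930 to 1.37 FPKM in the other 3 pilot males.

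**Figure D4:**
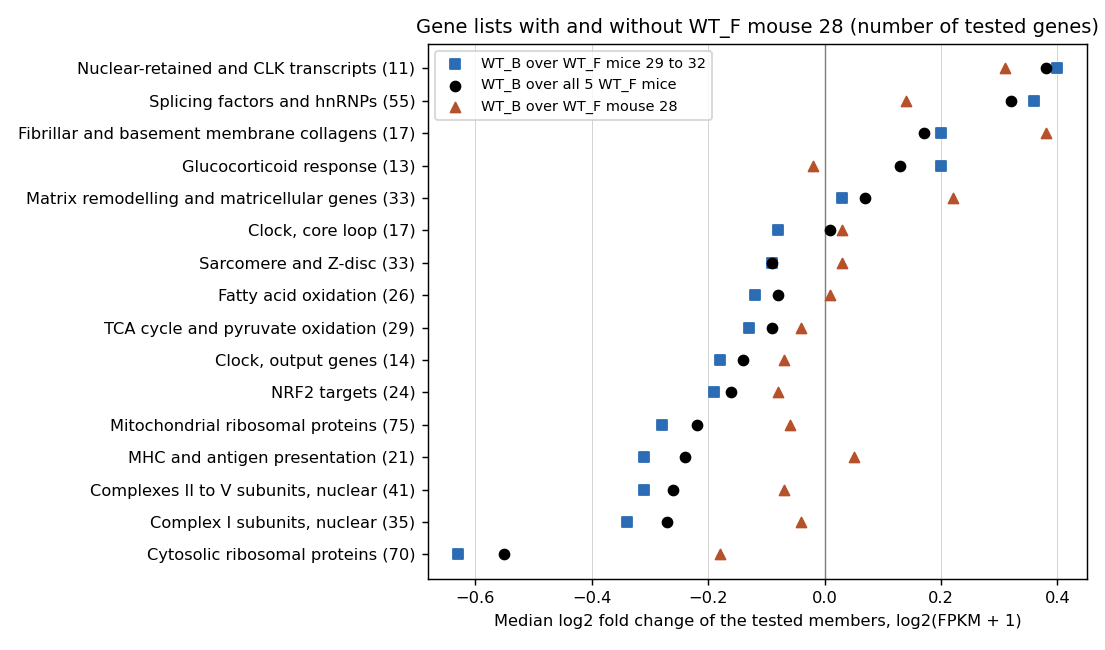
Median log2 fold change of the tested members of 16 gene lists (number of genes in brackets) for WT_B over all 5 WT_F mice (circles), over WT_F mice 29 to 32 (squares) and over WT_F mouse 28 (triangles). Cytosolic ribosomal proteins lie at -0.55 with all mice and -0.18 against mouse 28, splicing factors at 0.32 and 0.14, whereas collagens lie at 0.17 and 0.38.

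For each called gene the position of mouse 28 was expressed on a line from the mean of WT_F mice 29 to 32 (0) to the mean of WT_B (1). The median position was 0.44 among genes called higher and 0.47 among genes called lower, and mouse 28 was nearer to WT_B in 36 of 94 and 67 of 149. The calls were made with mouse 28 inside WT_F, so genes where it lay near WT_B were less likely to be called. Positions among called genes are therefore pulled toward 0 and are given as a description. Mouse 28 stood at -0.11 for C7, -0.47 for Efemp1, 0.09 for Hsd11b1, -0.23 for Eln and 0.01 for Col3a1, all called genes. Over all tested members, called or not, the median was 0.72 for cytosolic ribosomal proteins, 0.81 for splicing factors and -0.45 for collagens.

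Among other genes with a large change, Calm2, a calmodulin gene, rose, with 37.2 to 49.4 FPKM in WT_B and 11.8 to 36.9 FPKM in WT_F (log2 fold change 1.00, SE 0.22, adjusted p = 0.0458), 1.19 without mouse 28 and 0.26 against it alone. Abracl rose by 0.61 and Arhgap29 by 0.52. Igf1, a growth factor, had 0.946 to 1.18 FPKM in WT_B and 0.278 to 0.742 FPKM in WT_F, with mouse 28 at 0.742 FPKM (log2 fold change 0.56, adjusted p = 0.0245). Atp6v0e2, a subunit of the proton pump of lysosomes, had 4.17, 5.80, 5.15, 6.44 and 5.94 FPKM in WT_B and 9.20, 9.04, 9.64, 9.74 and 9.33 FPKM in WT_F. Its log2 fold change was -0.69 (SE 0.09, adjusted p = 0.0139), and it kept its call in 8 of the 10 comparisons that left out a library, more than any other gene that fell. Vgll2, a partner of TEAD factors, had 0.267 to 1.11 FPKM in WT_B and 1.56 to 3.06 FPKM in WT_F (log2 fold change -0.94, adjusted p = 0.0249). Shld1, a factor of DNA break repair, Smim26 and the crystallin gene Cryba4 fell by 0.89, 0.80 and 0.75.

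The molecular clock runs on a loop in which Clock and Arntl switch on Per, Cry and Nr1d genes, whose products then repress them, and it drives output factors such as Dbp and Tef. No time of sampling is given in the sources used here. None of the 17 core genes was called by limma (5 had an unadjusted p under 0.05, and voom called 2), while nuclear rescaling gave 2 called higher. Arntl had 1.52, 1.45, 1.19, 1.17 and 1.94 FPKM in WT_B and 0.904, 0.908, 0.836, 0.712 and 0.361 FPKM in WT_F, without overlap (log2 fold change 0.49, SE 0.11), and its adjusted p lay just above 0.05. Npas2, which can stand in for Clock, had 0.636 to 0.869 FPKM in WT_B and 0.399 to 0.521 FPKM in WT_F (log2 fold change 0.27, adjusted p = 0.0563). Per3 had 1.92 to 2.33 FPKM in WT_B and 2.43 to 3.70 FPKM in WT_F (log2 fold change -0.31, adjusted p = 0.0758). The log2 fold changes of Clock, Per1, Per2, Cry1, Cry2, Nr1d1, Nr1d2, Rora, Ciart, Bhlhe40, Bhlhe41, Csnk1d and Csnk1e lay between -0.39 and 0.29.

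Of 14 output genes Tef fell, with 17.0 to 18.3 FPKM in WT_B and 21.4 to 30.3 FPKM in WT_F (log2 fold change -0.42, SE 0.09, adjusted p = 0.0435). That call was lost under nuclear rescaling and quantile normalization, and 1.22% of all genes were called lower. Dbp had 29.2, 23.9, 24.2, 23.5 and 23.4 FPKM in WT_B and 24.1, 36.9, 30.7, 48.7 and 42.4 FPKM in WT_F, so that mouse 28 overlapped WT_B (log2 fold change -0.51, SE 0.16, adjusted p = 0.0921). Pdk4, which restrains glucose oxidation, varied within groups more than between them, with 102 to 485 FPKM in WT_B and 134 to 339 FPKM in WT_F. Values of Hlf, Nfil3, Usp2, Tspan4, Klf9, Klf15, Wee1, Kcnk3, Kcnip2, Leo1 and Hspa1b lay between -0.45 and 0.57 on the log2 scale, and none was called. Without mouse 28, 3 of 17 core genes rose and 1 fell, and 3 of 14 output genes fell. Over all genes 10.9% were then called higher and 9.55% lower.

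**Figure D5:**
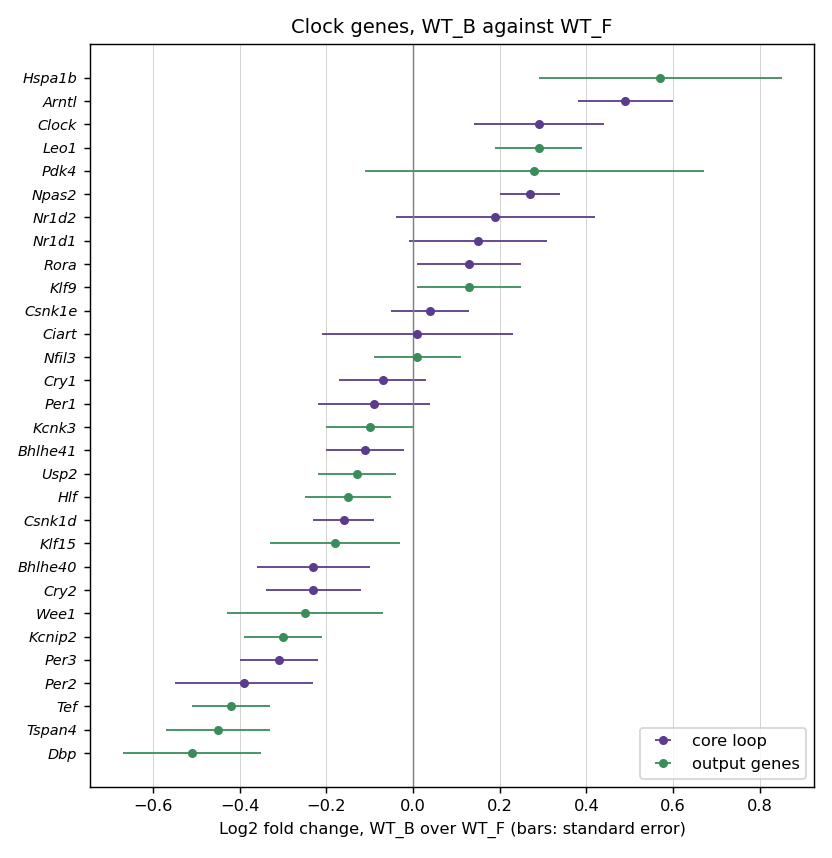
Log2 fold change of 30 clock genes, WT_B over WT_F, on log2(FPKM + 1), with the standard error as bars, for the core loop in violet and the output genes in green. Points right of the grey line are higher in WT_B. Arntl lies at 0.49 and Npas2 at 0.27, while Per2, Per3, Tef and Dbp lie at -0.39, -0.31, -0.42 and -0.51; of the 30, only Tef was called.

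The lists for stress of the endoplasmic reticulum, NRF2 targets and iron-sulfur and iron handling held 1 call each by limma, all lower, where 1.22% of all genes were called lower. At an unadjusted p under 0.05 were 7 of 27, 10 of 24 and 12 of 23, against 25.7% of all genes. Voom called 1, 1 and 2 lower, against 2.20% of all genes, and 1 of the first list higher. The heat shock list, of 26 tested genes, and the immediate early list, of 20, held none by limma, with 9 and 3 at an unadjusted p under 0.05 and 1 call each by voom. Herpud1, which helps to clear misfolded proteins from the endoplasmic reticulum, had 104, 93.4, 110.0, 112 and 98.5 FPKM in WT_B and 147, 158, 160.0, 127 and 195 FPKM in WT_F (log2 fold change -0.59, SE 0.11, adjusted p = 0.0275), the only call of 27 genes of that list. Gsta3, a glutathione transferase among 24 NRF2 targets, had 0.836 to 1.12 FPKM in WT_B and 1.46 to 2.87 FPKM in WT_F (log2 fold change -0.53, adjusted p = 0.0435). Bola3, which hands on iron-sulfur clusters in mitochondria, had 24.5 to 32.9 FPKM in WT_B and 29.1 to 48.8 FPKM in WT_F, with overlap at mouse 28 (log2 fold change -0.64, adjusted p = 0.0444), the only call of 23 genes for iron-sulfur and iron handling. The calls of Gsta3 and Bola3 were lost under nuclear rescaling, and those of Herpud1 and Bola3 under quantile normalization. Hist1h4i, a histone gene, had 1.81 to 3.03 FPKM in WT_B and 3.16 to 5.02 FPKM in WT_F (log2 fold change -0.68, adjusted p = 0.0251). Of 33 sarcomere genes only Myl2 was called, lower by 0.45 on the log2 scale (log2 fold change -0.45, adjusted p = 0.0495), and mouse 28 at 2560 FPKM equalled the highest WT_B heart at that precision. The call of Myl2 was lost under both of those scalings.

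Of the 33 lists, 18 held no called gene by limma, the core clock, heat shock and immediate early lists among them. Together they hold 414 tested genes, of which 101 had an unadjusted p under 0.05 (24.4%, against 25.7% of all genes), and voom called 15 (3.62%, against 4.97%), 7 of them higher. The strongest members by p included Cd36, a fatty acid transporter (log2 fold change 0.91, adjusted p = 0.0718), with 373 to 512 FPKM in WT_B and 143 to 475 FPKM in WT_F, where mouse 28 was the highest. Dnaja1, a co-chaperone, had 4.23 to 10.2 FPKM in WT_B and 1.95 to 6.02 FPKM in WT_F (log2 fold change 0.91, adjusted p = 0.0636). Idh2 of the mitochondrial matrix had 635 to 772 FPKM in WT_B and 787 to 872 FPKM in WT_F, without overlap (log2 fold change -0.29, adjusted p = 0.0629). Ier3, Ifi27l2a and Mvk, of the immediate early, interferon and sterol lists, had log2 fold changes of -0.79, -0.92 and -0.36, and their adjusted p lay just above 0.05. The other leading members were Mtpap, Acot13, Eno3, Mcee, Cacna2d1, Xirp2, H2-T22, Elovl5, Psmb5, Cd38 and Mcm2, with log2 fold changes of -0.47 to 0.76.

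Markers of other cell types were read for all 17 lists. The summed level of 8 white adipocyte markers did not overlap, at 0.465 to 1.08 FPKM in WT_B and 1.21 to 4.77 FPKM in WT_F. These sums are low, and only 1 of the 8 passed the filter, with a log2 fold change of -0.09 and an unadjusted p above 0.05. Among single genes tested, 5.22% did not overlap. Macrophage markers lay at 140.0 to 181 FPKM in WT_B and 143 to 228 FPKM in WT_F, and red blood cell markers at 787 to 999 FPKM in WT_B and 655 to 1970 FPKM in WT_F. Ucp1, Otop1, Isl1, Sftpc, Sftpa1 and Foxn1, of brown fat, pacemaker tissue, lung and thymus, were listed at 0 in all 10 libraries. Their lists as a whole were not at 0. Brown adipocyte markers summed to 18.1 to 24.8 FPKM in WT_B and 18.3 to 24.6 FPKM in WT_F, and conduction markers to 4.62 to 6.70 and 5.07 to 6.75 FPKM. Markers of lung, thymus and other neighbouring tissue summed to 0.0464 to 0.293 FPKM in WT_B and 0.0617 to 1.79 FPKM in WT_F, highest in mouse 28. Of all marker genes tested only Myl2 and Hey2, both ventricular, were called, Myl2 lower and Hey2 higher in WT_B. Whether the difference in these low white adipocyte sums has a part in the other differences was not tested.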

How the data were processed

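Poly-T selected mRNA libraries of mouse heart were analysed, 1 mouse each, with groups taken from the sample labels. Per the study's methods the authors counted fragments per gene with featureCounts, and the FPKM they deposited scale those counts by gene length and by library total. The submitters' processing notes name build GRCm39. The labels name both directional and non-directional chemistry, so overlapping and antisense genes may share fragments. Gene symbols, biotypes, chromosomes and lengths came from GENCODE M21 annotation of GRCm38, and sequences from RefSeq.

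Genes on autosomes with at least 0.5 FPKM in at least 4 of the 10 libraries were tested on log2(FPKM + 1) with limma 3.58.1 in R 4.3.3 (moderated test with an intensity trend as fixed in the design, Benjamini-Hochberg over all 12243 genes, threshold 0.05). Of the 12894 genes that passed the filter, 366 on X, 5 on Y, 34 mitochondrial and 244 without a chromosome were left out. Mitochondrial shares were compared with an exact permutation test in Python 3.11.15 with scipy 1.17.1. The procedure was tested on simulated data. Depth was recovered from the steps of low FPKM: 91.2% to 92.0% of values up to 30 fragments came out whole within 0.02, against 4.0% by chance, and voom on those fragments was an added alternative.

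Named genes were the 12 largest called changes in each direction (symbols that are no predicted model, at least 5 FPKM in a group, no overlap), in each list up to 3 called genes by smallest p, or where none was called its leading gene, all clock genes except 1 that is not reported here, sex-linked checks and Myl2 and Myl7. The members and lists were chosen with earlier results of these data known. Alternatives were other pseudocounts, filters, scalings, a mitochondrial covariate, array weights, all 14 libraries and each library left out. Genes on X and Y were not analysed beyond the check of labels.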

Additional observations from a re-analysis of the deposited data

Results flagged for a closer look

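Among 200 groups of 5 values checked for a library far from the rest, 12 exceeded the critical ratio of 0.71 of the gap to the range, and chance flags about 5% of such groups. In WT_F, mouse 28 was the distant library in 6 of the 12. It was the highest for Abracl (ratio 0.789), Ccnl1 (0.840) and Igf1 (0.778) and the lowest for Snrpg (0.858), Ndufa7 (0.728) and Kcnk3 (0.736). Mouse 32 was distant for Cryba4 (0.727) and Cry1 (0.725). In WT_B, mouse 9 was distant for Prpf4b (0.781) and Bola3 (0.893), mouse 4 for Dbp (0.844) and mouse 7 for Nfil3 (0.945). The cause of these gaps was not tested.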

How the results depend on the processing

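The count of 243 genes (94 higher and 149 lower in WT_B) stayed within 1.5 times under pseudocounts of 0.1 and 5 FPKM, a 2 FPKM filter, nuclear rescaling, median-of-ratios scaling and quantile normalization (182 to 265), although nuclear rescaling called 63 lower. It moved to 12 (10 and 2) with no filter, where more genes were tested, 1 (1 and 0) with the mitochondrial covariate, 6 (6 and 0) with that covariate and nuclear rescaling, 3986 (1819 and 2167) with array weights, 27 (18 and 9) with all 14 libraries and 20 (17 and 3) when changes under 1 on the log2 scale were not counted. Against mouse 28 alone, where the spread came from the WT_B mice only, the genes called higher had a median log2 fold change of 0.32. Those called lower had -0.29. In alternatives chosen after seeing the data, 2999 (1474 and 1525) were called without WT_F mouse 28 and WT_B mouse 9, and 608 (339 and 269) by voom on recovered fragments, 230 of them shared with the 243. Leaving out 1 library gave 9 to 2482 genes, 9 to 1323 higher and 0 to 1159 lower, and a difference in mitochondrial share of 25.3 to 37.2 points. Its exact p rose above 0.05 without WT_B mouse 8 (27.41 points) or WT_F mouse 29 (26.59), 30 (28.99), 31 (26.61) or 32 (25.3). The cause of these differences between settings was not tested. No paired analysis was possible because the groups share no replicate number. With 5 mice a group, genes near 1 FPKM rest on few fragments, and fold changes there are understated by the added 1 FPKM.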
